A study of Mus musculus with 143 samples.

Results

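The 40 activity-regulated immediate early genes described here were taken by name from a list of genes that neurons switch on with firing. That list was chosen with earlier results of these data known. The genes are 40 of the 41128 mouse genes in the count table. They comprise 8 members of the FOS and JUN families and their dimerising partners, 4 EGR factors, and 8 NR4A receptors and other transcription regulators. A further 13 are genes of signalling feedback, growth and stress control, among them the DUSP phosphatases, and 7 are effectors at the synapse or elsewhere in the cell. All 40 passed the filter on low counts in each of the 3 fits, so no member is missing from the counts below.

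Immediate early genes are transcribed within minutes of calcium entry or receptor signalling and need no new protein for it. Calcium, cyclic AMP and ERK kinase signalling converge on CREB at cyclic AMP response elements and on serum response factor at CArG boxes, and the early transcription factors then act on later genes while phosphatases such as the DUSP family switch the kinases off again. In the striatum the bulk of the neurons are medium spiny neurons, which express these genes in answer to cortical glutamate and to dopamine.

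The data are 143 polyadenylated RNA libraries from the corpus striatum, each from 1 mouse per the labels, of wild-type (WT) mice and of zQ175 mice, a knock-in line in which the mouse Htt gene carries an expanded CAG repeat and which is used as a model of Huntington disease. Each genotype was left untreated, given the non-targeting control NTC, or given HTT-10150, an siRNA against Htt. In the strategy 2[4]6 dosing was at 2 months of age and the tissue was taken at 6 months, in 6[4]10 the ages were 6 and 10 months, and in 2+6[8]10 the doses came at both 2 and 6 months before collection at 10. Each of the 18 groups had 8 mice, 4 female and 4 male, except WT given HTT-10150 in 2+6[8]10, with 2 females and 5 males. Untreated mice are the reference without siRNA in each strategy. Whether the zQ175 mice carried 1 or both expanded alleles is not given in the sources used here.

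Total counts were between 12.55 M and 29.19 M in single libraries (M for 1000000 counts), and the median library had 18.85 M. Medium spiny neuron markers summed to between 9116 and 13515 counts per 1000000 (CPM) in WT and between 3551 and 7035 CPM in zQ175, so the tissue label held in every library while the 2 genotypes did not overlap in this sum. Markers of cortical excitatory neurons ran from 14.8 to 438 CPM and those of choroid plexus and ependyma from 38.9 to 5408 CPM across libraries. In bulk tissue, fewer cells of a type and less RNA per cell cannot be told apart. The library names also carry a number whose meaning the labels do not give. It takes 63 values, 48 of which are shared by 2 to 4 libraries of the same strategy, and all but 1 of the values belong to a single genotype, so each genotype comparison below was also run with this number as a random term.

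The promoters of these genes were searched for motifs of the factors named above. RefSeq promoters (GRCm38.p6, the 250 bases before the annotated start) were matched for 29 of the 40 genes. A gene with several annotated starts was counted if any of its windows held the motif. The short core of the cyclic AMP response element, TGACG on either strand, was present for 19 of the 29 genes (65.5%), against 19.8% of 27025 genes. The full palindrome TGACGTCA, which contains the core on both strands, was found for 5 of the 29 (17.2%, against 1.77%), namely Arl4d, Arl5b, Btg2, Dusp1 and Maff. The EGR motif GCGNGGGCG was found for 9 (31.0%, against 5.33%), the E-box CACGTG for 7 (24.1%, against 6.86%), a CArG box for 2 (6.9%, against 1.62%) and the AP-1 motif TGANTCA for 0 (against 7.82%). A match describes letters in this window and does not show that a factor binds there. The 6 promoters shown are those of 5 of the 6 genes that were lower in zQ175 in every comparison below, and of Fos, which was called in none. Each is written 5′ to 3′ on the strand of its gene and without annotated exon bases, with capitals marking TGACG or its reverse complement CGTCA and, in Egr2, also the CArG box.
Egr2 (chr10:67537619-67537868, plus strand): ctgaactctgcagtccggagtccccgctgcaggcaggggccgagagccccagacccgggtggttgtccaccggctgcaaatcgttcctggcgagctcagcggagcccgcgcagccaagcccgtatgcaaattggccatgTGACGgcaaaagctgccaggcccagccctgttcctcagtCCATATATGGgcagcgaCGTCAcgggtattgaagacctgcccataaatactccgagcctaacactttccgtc
Homer1 (chr13:93303507-93303756, plus strand): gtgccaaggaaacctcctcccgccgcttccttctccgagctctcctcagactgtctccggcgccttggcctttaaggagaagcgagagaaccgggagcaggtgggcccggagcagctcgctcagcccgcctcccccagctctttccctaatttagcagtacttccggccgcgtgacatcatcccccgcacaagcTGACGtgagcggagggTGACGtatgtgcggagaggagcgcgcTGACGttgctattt
Arl4d (chr11:101665291-101665540, plus strand): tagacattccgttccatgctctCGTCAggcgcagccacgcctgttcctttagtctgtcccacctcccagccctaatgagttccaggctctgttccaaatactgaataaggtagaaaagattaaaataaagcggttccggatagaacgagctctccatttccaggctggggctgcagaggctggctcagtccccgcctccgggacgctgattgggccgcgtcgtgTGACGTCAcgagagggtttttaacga
Dusp1 (chr17:26508520-26508722, minus strand): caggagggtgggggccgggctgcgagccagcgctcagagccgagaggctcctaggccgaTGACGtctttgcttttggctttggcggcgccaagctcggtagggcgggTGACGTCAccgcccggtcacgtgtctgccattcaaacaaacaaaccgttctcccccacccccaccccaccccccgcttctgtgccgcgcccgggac
Per1 (chr11:69098699-69098947, plus strand): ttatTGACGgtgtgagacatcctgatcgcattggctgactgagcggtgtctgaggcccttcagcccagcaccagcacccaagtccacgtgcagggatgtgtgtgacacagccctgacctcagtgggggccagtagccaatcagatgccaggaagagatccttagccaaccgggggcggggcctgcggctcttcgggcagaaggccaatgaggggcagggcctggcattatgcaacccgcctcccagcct
Fos (chr12:85473640-85473889, plus strand): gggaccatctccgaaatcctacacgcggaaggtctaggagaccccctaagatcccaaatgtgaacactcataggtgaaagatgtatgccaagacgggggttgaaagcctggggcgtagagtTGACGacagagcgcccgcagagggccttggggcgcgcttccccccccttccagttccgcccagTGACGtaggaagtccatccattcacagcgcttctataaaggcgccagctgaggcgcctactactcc
Egr2 had 5 annotated windows and Homer1 and Per1 had 2 each. For these genes the window shown was picked for the most TGACG and CArG matches. In the windows shown, the cores lie 106 and 50 bases before the start in Egr2, and 51, 35 and 9 bases in Homer1. Fos has 2 cores, the nearer of them 61 bases before its start. Arl4d and Dusp1 each hold the palindrome, and Per1 holds 1 core at the far end of its window. For Dusp14, the remaining gene lower in every comparison, only 123 bases were left once annotated exon bases were taken out, and they hold none of the motifs that were marked. The core was present in windows shown for genes called lower in zQ175 and in that of Fos, and its relation to the changes was not tested.

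Levels per transcript length, as transcripts per 1000000 (TPM) in the 24 untreated WT libraries, spanned more than 2 orders of magnitude. Vgf, a secreted neuropeptide precursor, was highest at 263.9 ± 41.9 TPM (SD, n = 24), followed by Egr1 at 235.98 ± 54.8 TPM, a difference within their spreads. That order was not the same in every strategy: in 2+6[8]10 Egr1 stood at 258.5 TPM and Vgf at 247.01 TPM, and in 6[4]10 Jund stood at 153.2 TPM and Homer1 at 141.5 TPM. Homer1, Jund, Arc, Junb and Nr4a1 followed at 150.6, 144.1, 130.3, 129.1 and 112.0 TPM. Fos stood at 25.2 ± 12.4 TPM and Egr2 at 13.1 TPM, and the lowest were Ptgs2, Atf3 and Maff at 1.39, 1.26 and 1.17 TPM. The Homer1 counts cover the long scaffold forms together with the short, activity-induced form Homer1a, and those of Fosb cover its splice forms, since the table has 1 value per gene.

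The members varied far more between mice of a group than most genes. The SD of log2(CPM + 1) within groups had a median of 0.27, 0.29 and 0.38 over the 40 members in 2[4]6, 6[4]10 and 2+6[8]10, against 0.13, 0.13 and 0.12 over all genes tested, and 38, 39 and 39 of the 40 lay above that median of all genes. Nr4a2 was the most variable of those named below (1.02, 1.28 and 1.12) with Fos next (0.78, 0.76 and 0.96), while Ier5 (0.14, 0.13 and 0.12) and Homer1 (0.18, 0.20 and 0.17) varied less than the median member. The library with the most Fos in its group also had the group's highest value in 4 to 25 of the other 39 members and was above the group's median in 19 to 38 of them. The fewest highest values were in 2[4]6 after NTC, in which the highest-Fos library was also highest in 4 members in WT and in 6 in zQ175. The library with the least Fos was also lowest in 4 to 30 members.

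Comparing zQ175 with WT within each strategy and treatment asks what the knock-in does to these genes, in 9 comparisons. In untreated mice of 2[4]6, 25 of the 40 members were lower in zQ175 and 0 were higher (edgeR quasi-likelihood test, adjusted p under 0.05 over all genes), while 32.6% of the 15716 genes tested were called and 17.2% were lower. In untreated 6[4]10, 10 were lower and 4 higher (36.1% of all genes called, 17% lower), and in untreated 2+6[8]10, 10 were lower and 2 higher (35.4% called, 18.3% lower). After NTC, 17 were lower and 2 higher in 2[4]6 (34.4% called, 18.5% lower), and 15 were lower and 1 higher in both 6[4]10 (32.8% called, 15.9% lower) and 2+6[8]10 (42.1% called, 21.4% lower). After HTT-10150, the counts were 27 lower and 0 higher in 2[4]6 (33.5% called, 17.4% lower), 20 and 0 in 6[4]10 (34.7% called, 16.9% lower), and 16 and 1 in 2+6[8]10 (36.2% called, 18.7% lower). By edgeR, the share of members called lower was thus above that of all genes in each of the 9 comparisons. The share called higher was below that of all genes in each.

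The median log2 fold change of the 40 members was -0.51, -0.27 and -0.28 in untreated mice of 2[4]6, 6[4]10 and 2+6[8]10, and -0.30, -0.36 and -0.38 after NTC. After HTT-10150 it was -0.53, -0.36 and -0.46, while the median over all genes tested stayed near 0 in all 9 comparisons. With the library number as a random term in a mixed model on log2 CPM, the untreated comparisons gave 25, 9 and 5 members lower and 0, 3 and 3 higher (32.7%, 35.8% and 35.6% of all genes called). The same model gave 17, 16 and 15 lower with 2, 1 and 1 higher after NTC (36.1%, 32.4% and 41.8% called), and 27, 19 and 15 lower with 0, 0 and 1 higher after HTT-10150 (36.4%, 35.3% and 35.8% called). Its medians over the members were -0.56, -0.23 and -0.16 in untreated mice, -0.30, -0.43 and -0.38 after NTC, and -0.56, -0.39 and -0.40 after HTT-10150. Untreated 2+6[8]10 is where the 2 tests differed most. There the mixed model called 2799 of 15506 genes lower, a larger share than the 5 of 40 members. In its other genotype comparisons the members' share called lower was the larger.

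**Figure D1:**
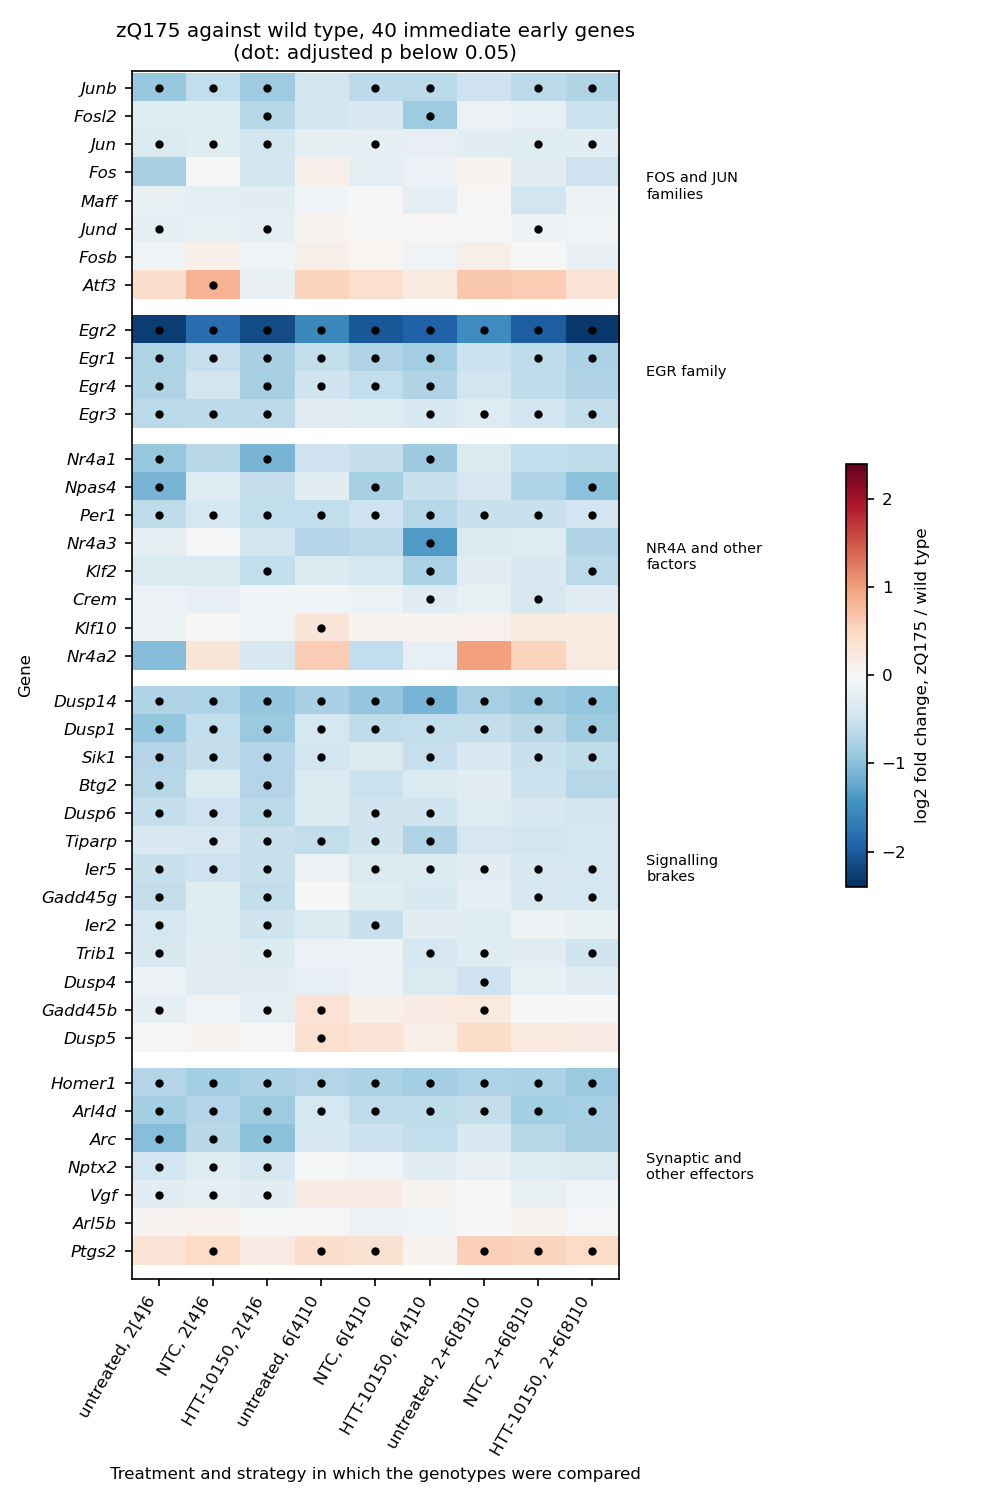
Log2 fold change of zQ175 against WT for the 40 members (vertical axis, grouped by role) in the 9 comparisons (horizontal axis, by treatment and strategy), on a colour scale centred on 0. A dot marks an adjusted p under 0.05 in edgeR. Dots are densest among the EGR factors and the genes of signalling feedback, growth and stress control, labelled signalling brakes. They are sparsest in the FOS and JUN group, and Ptgs2 has dots for higher values in 6 of the 9 comparisons.

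Across the 9 comparisons, 6 members were lower in every one: Egr2, Dusp14, Homer1, Arl4d, Dusp1 and Per1. Of the 15431 genes tested in all of them, 7.53% were lower in every comparison, 5.06% were higher in every one and 26.5% were called in none. In the mixed model, Homer1, Dusp14 and Per1 were lower in all 9 (7.45% of genes), Egr2 and Arl4d in 8, and Dusp1 in 7. Counts by gene and role below are those of edgeR unless the mixed model is named. The mixed model had fewer lower calls for Sik1 (6), Trib1 (4), Npas4 (2), Nr4a1 (2) and Fosl2 (1). It had more for Jun (8), Tiparp (6) and Jund (5), and Dusp5 was higher in 2. By edgeR, 31 members in total were lower in at least 1 comparison, 5 were higher in at least 1, and Fos, Fosb, Maff, Arl5b and Nr4a2 were called in none. Separation of the individual mice was rarer than a call. Every zQ175 mouse lay below every WT mouse for 9, 3 and 1 members in untreated mice of the 3 strategies (5.8%, 4.63% and 5.82% of all genes), for 3, 3 and 2 after NTC (5.45%, 4.88% and 7.04%) and for 5, 2 and 4 after HTT-10150 (4.02%, 5.1% and 6.82%). The count of members with separated groups was highest in untreated 2[4]6, at 9 of 40, and lowest in untreated 2+6[8]10, where Homer1 was the 1 member.

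The EGR factors, zinc-finger proteins that carry the early response to later genes, were lower most regularly: 29 of their 36 tests (4 genes in 9 comparisons) were calls for lower values and 0 for higher. Of all genes, 15.9% to 21.4% were called lower in each comparison, and the counts for the other roles below are to be read against that share. Egr2, known from myelination in Schwann cells and induced in neurons by firing, ran from 7.04 to 25.4 CPM with a median of 14.7 in untreated WT of 2[4]6, and from 1.76 to 5.24 CPM with a median of 2.78 in zQ175. The range in 6[4]10 was from 12.3 to 27.6 CPM (median 16) in WT and from 3.45 to 8.03 CPM (median 6.14) in zQ175. No untreated zQ175 mouse reached the lowest untreated WT mouse in these strategies, and over all 9 comparisons the groups were separated in 4. In 2+6[8]10 the groups overlapped, with 8.66 to 42.3 CPM (median 15.2) in WT and 2.42 to 15.7 CPM (median 5.78) in zQ175. The log2 fold changes of Egr2 ran over the 9 comparisons from -1.502 ± 0.50 (SE; adjusted p 0.0163, untreated 2+6[8]10) to -2.31 ± 0.55 (adjusted p 0.000854, HTT-10150 2+6[8]10), which is 2.83-fold to 4.97-fold lower. In the mixed model the untreated 2+6[8]10 value was -1.05 with an adjusted p of 0.131. Medians of the 9 WT groups lay between 14.3 and 18.8 CPM and those of the 9 zQ175 groups between 2.78 and 6.14 CPM, so the group medians of Egr2 were apart whatever the treatment.

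Egr1, the most abundant EGR factor, had 235.3, 340.2 and 393.5 CPM (lowest, median, highest) in untreated WT of 2[4]6 and 143.9, 198.0 and 254.9 CPM in zQ175, so 1 range ran slightly into the other. Values of Egr1 in 6[4]10 were 267.0, 361.1 and 497.8 CPM against 175.77, 256.5 and 276.0 CPM, and in 2+6[8]10 they were 268.8, 350.5 and 638.0 CPM against 184.6, 238.5 and 394.3 CPM. Egr1 was called lower in 8 of the 9 comparisons, with -0.75 ± 0.17 (adjusted p 0.000615) in untreated 2[4]6. The exception was untreated 2+6[8]10, at -0.52 ± 0.23 (adjusted p 0.0693). Egr3, which acts in the same program and was lower in 7 comparisons, ranged from -0.65 to -0.28 and had separated groups in 3 of them, and Egr4 was lower in 5, ranging from -0.80 to -0.44.

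The FOS and JUN families, which pair to form AP-1, gave 18 calls for lower and 1 for higher values in 72 tests, beside the 15.9% to 21.4% of all genes called lower. Fos, the classic mark of a recently active neuron, had 9.72, 19.4 and 34.5 CPM (lowest, median, highest) in untreated WT of 2[4]6 and 6.65, 9.6 and 23.4 CPM in zQ175. Fos values in 6[4]10 were 7.92, 22 and 32.5 CPM against 12.61, 21.3 and 36.6 CPM, and in 2+6[8]10 they were 10.1, 19 and 53.1 CPM against 10, 21.3 and 43.7 CPM. The ranges overlapped in every strategy and the medians were nearly equal in the later 2. Fos log2 fold changes ran from -0.79 ± 0.37 (adjusted p 0.103, untreated 2[4]6) to 0.13 ± 0.38 (adjusted p 0.83, untreated 6[4]10). The standard errors of Fos, 0.37 to 0.50, are several times those of Homer1, 0.08 to 0.10, so changes of Homer1's size would be hard to tell from 0 in Fos.

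Junb, a JUN protein with weaker activation of targets than Jun, was called lower in 7 comparisons. It had 82.5, 96.1 and 161.3 CPM in untreated WT of 2[4]6 and 35.1, 51.5 and 80.3 CPM in zQ175, with no overlap. Junb in 6[4]10 had 78, 105.5 and 147.6 CPM against 67.2, 76 and 95.6 CPM, and in 2+6[8]10 they were 73, 109.1 and 172.9 CPM against 47.6, 80.4 and 116.2 CPM. The corresponding log2 fold changes of Junb were -0.91 ± 0.20 (adjusted p 0.000359), -0.45 ± 0.19 (0.0672) and -0.49 ± 0.23 (0.0864), so the untreated comparisons at 10 months were those not called. Jun was lower in 6 comparisons (-0.44 to -0.20), Jund in 3 and Fosl2 in 2. Atf3, a stress-responsive factor at a low level here, was higher in 1 comparison (0.84, NTC 2[4]6), and Fosb and Maff were called in none.

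Among the NR4A orphan receptors and other regulators, calls for lower values made up 21 of 72 tests and calls for higher values 1. Per1, a clock gene that CREB also induces, was the one called lower in every comparison. It had 73.4, 106.0 and 132.1 CPM in untreated WT of 2[4]6 and 51.3, 65.6 and 85.4 CPM in zQ175, and 90.8, 135.2 and 150.5 CPM against 67, 89.2 and 101.8 CPM in 6[4]10. In 2+6[8]10 the values were 90.3, 124.9 and 168.6 CPM against 67.4, 86.3 and 112.7 CPM, with overlap in all 3 strategies. Log2 fold changes of Per1 ran from -0.43 ± 0.14 (adjusted p 0.0123, NTC 2[4]6) to -0.69 ± 0.13 (adjusted p 6.94e-05, HTT-10150 6[4]10).

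Npas4, a neuronal factor that is induced selectively by calcium entry, had 24.5, 35.6 and 42.7 CPM in untreated WT of 2[4]6 and 7.16, 12.7 and 25.6 CPM in zQ175, where the highest zQ175 mouse just passed the lowest WT mouse. In 6[4]10 the values were 18, 39.7 and 51.7 CPM against 15, 31.3 and 40.6 CPM, and in 2+6[8]10 they were 19.9, 41.8 and 77.8 CPM against 13.5, 33.4 and 43.8 CPM. The untreated log2 fold changes of Npas4 were -1.12 ± 0.33 (adjusted p 0.00771), -0.26 ± 0.31 (0.542) and -0.40 ± 0.33 (0.384), and it was called lower in 3 of the 9 comparisons. Nr4a1 had 50.4, 90.9 and 181.4 CPM in untreated WT of 2[4]6 and 23.6, 49.4 and 109.8 CPM in zQ175 (-0.91 ± 0.35, adjusted p 0.0387). Nr4a1 in 6[4]10 had 95.6, 124.2 and 190.4 CPM against 50.3, 103.7 and 120.7 CPM (-0.51 ± 0.34, 0.262), and in 2+6[8]10 it had 56, 128.4 and 256.8 CPM against 39.1, 83.5 and 194.0 CPM (-0.36 ± 0.44, 0.573). Both genes had lower medians in zQ175 throughout, with groups that overlapped. Klf2 was lower in 3 comparisons, Crem in 2 and Nr4a3 in 1. Nr4a2 was called in none, with log2 fold changes from -1.05 to 0.99, and Klf10 was higher in 1, which the mixed model did not call (adjusted p 0.0523).

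The 13 genes of signalling feedback, growth and stress control held 60 calls for lower and 3 for higher values in 117 tests. Dusp14, a phosphatase of MAP kinases, had 32.2, 37.4 and 42 CPM in untreated WT of 2[4]6 and 18.7, 21.9 and 28.3 CPM in zQ175. Values in 6[4]10 were 33, 42.3 and 70.9 CPM against 19.3, 27.7 and 29.9 CPM, and the untreated groups did not overlap in either strategy. Over all 9 comparisons the groups were separated in 3. In 2+6[8]10 the ranges met, with 33.6, 44.8 and 83.9 CPM against 19.6, 25.1 and 45.9 CPM. Log2 fold changes of Dusp14 ran from -0.72 ± 0.13 (adjusted p 3.5e-05, untreated 2[4]6) to -1.12 ± 0.18 (adjusted p 2.19e-06, HTT-10150 6[4]10), 1.64-fold to 2.17-fold lower.

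Dusp1, the phosphatase that ends p38, JNK and ERK signals in the nucleus, had 30, 37.7 and 52.3 CPM in untreated WT of 2[4]6 and 15.4, 18.8 and 28.4 CPM in zQ175, without overlap. Values in 6[4]10 were 22.2, 38.3 and 52.5 CPM against 22.4, 26.5 and 35.4 CPM, and in 2+6[8]10 they were 27.1, 34.2 and 66.1 CPM against 17.6, 26.9 and 34.5 CPM. Its fold changes ran from -0.93 ± 0.17 (adjusted p 2.23e-05, untreated 2[4]6) to -0.43 ± 0.17 (adjusted p 0.0457, untreated 6[4]10). In the mixed model the 2 untreated comparisons at 10 months gave Dusp1 adjusted p-values of 0.12 and 0.119, so neither call was made by both tests.

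Ier5, an early gene of growth and heat-shock responses, had small changes, -0.54 to -0.15, and small spread. It was lower in 8 comparisons, and in 7 of them every zQ175 mouse lay below every WT mouse. Sik1, the salt-inducible kinase that keeps CREB coactivators out of the nucleus, was lower in 7 comparisons (-0.70 to -0.35). Dusp6, an ERK phosphatase, Tiparp, an ADP-ribosyltransferase, and Trib1, a pseudokinase, were lower in 5 each, Gadd45g in 4, Ier2 in 3, Btg2 in 2 and Dusp4 in 1, which the mixed model did not call (adjusted p 0.0551). Gadd45b was lower in 2 comparisons and higher in 2, and Dusp5 was higher in 1.

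Of the 7 effectors, Homer1, a postsynaptic scaffold that links metabotropic glutamate receptors to calcium stores, separated the genotypes in more comparisons than any other member. It had 189.3, 226.1 and 258.5 CPM in untreated WT of 2[4]6 and 120.9, 139.6 and 157.7 CPM in zQ175, and 184.4, 206.4 and 259.1 CPM against 109.6, 126.3 and 159.3 CPM in 6[4]10. In 2+6[8]10 the values were 204.9, 231.5 and 311.1 CPM against 118.9, 141.8 and 179.1 CPM. Every zQ175 mouse lay below every WT mouse in all 9 comparisons, treated groups included. Log2 fold changes of Homer1 ran from -0.71 ± 0.08 (adjusted p 1.03e-09, untreated 2[4]6) to -0.89 ± 0.09 (adjusted p 1e-10, HTT-10150 2+6[8]10), 1.63-fold to 1.86-fold lower.

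Arl4d, a small GTPase of the ARF family, had 39.5, 48.4 and 58.3 CPM in untreated WT of 2[4]6 and 24.1, 26.2 and 35.1 CPM in zQ175, without overlap. In 6[4]10 the values were 35, 43.6 and 55.1 CPM against 27.1, 33 and 42.6 CPM, and in 2+6[8]10 they were 35.3, 45.2 and 80.6 CPM against 22.5, 32.5 and 44.5 CPM. Its fold changes ran from -0.85 ± 0.13 (adjusted p 2.75e-06, HTT-10150 2[4]6) to -0.41 ± 0.14 (adjusted p 0.0229, untreated 6[4]10). In the mixed model 1 of the 9 calls of Arl4d, untreated 2+6[8]10, had an adjusted p of 0.0878.

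Arc, which drives removal of AMPA receptors from the synapse, had 98.7, 180.0 and 262.8 CPM in untreated WT of 2[4]6 and 56.1, 84.3 and 133.5 CPM in zQ175 (-1.03 ± 0.26, adjusted p 0.00166). In 6[4]10 the values were 81.4, 173.8 and 248.7 CPM against 108.2, 128.1 and 172.4 CPM (-0.37 ± 0.27, 0.31), and in 2+6[8]10 they were 116.1, 155.6 and 332.4 CPM against 72.7, 125.3 and 232.6 CPM (-0.37 ± 0.37, 0.463). The 2 genotypes overlapped in each strategy, and Arc was lower in 3 comparisons, the 3 of 2[4]6. In the mixed model the one after NTC had an adjusted p of 0.0884 and was not called. Nptx2, a secreted organiser of excitatory synapses, was lower in 3 comparisons, as was Vgf, whose fold changes ran from -0.26 to 0.20. Ptgs2, which encodes the prostaglandin-forming enzyme COX-2, went the other way: it was higher in 6 of the 9 comparisons in both tests, with log2 fold changes from 0.06 to 0.58. In untreated 2+6[8]10 it had 2.31, 2.81 and 3.34 CPM in WT and 2.36, 4.01 and 5.83 CPM in zQ175 (0.58 ± 0.17, adjusted p 0.00479), so the groups overlapped.

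**Figure D2:**
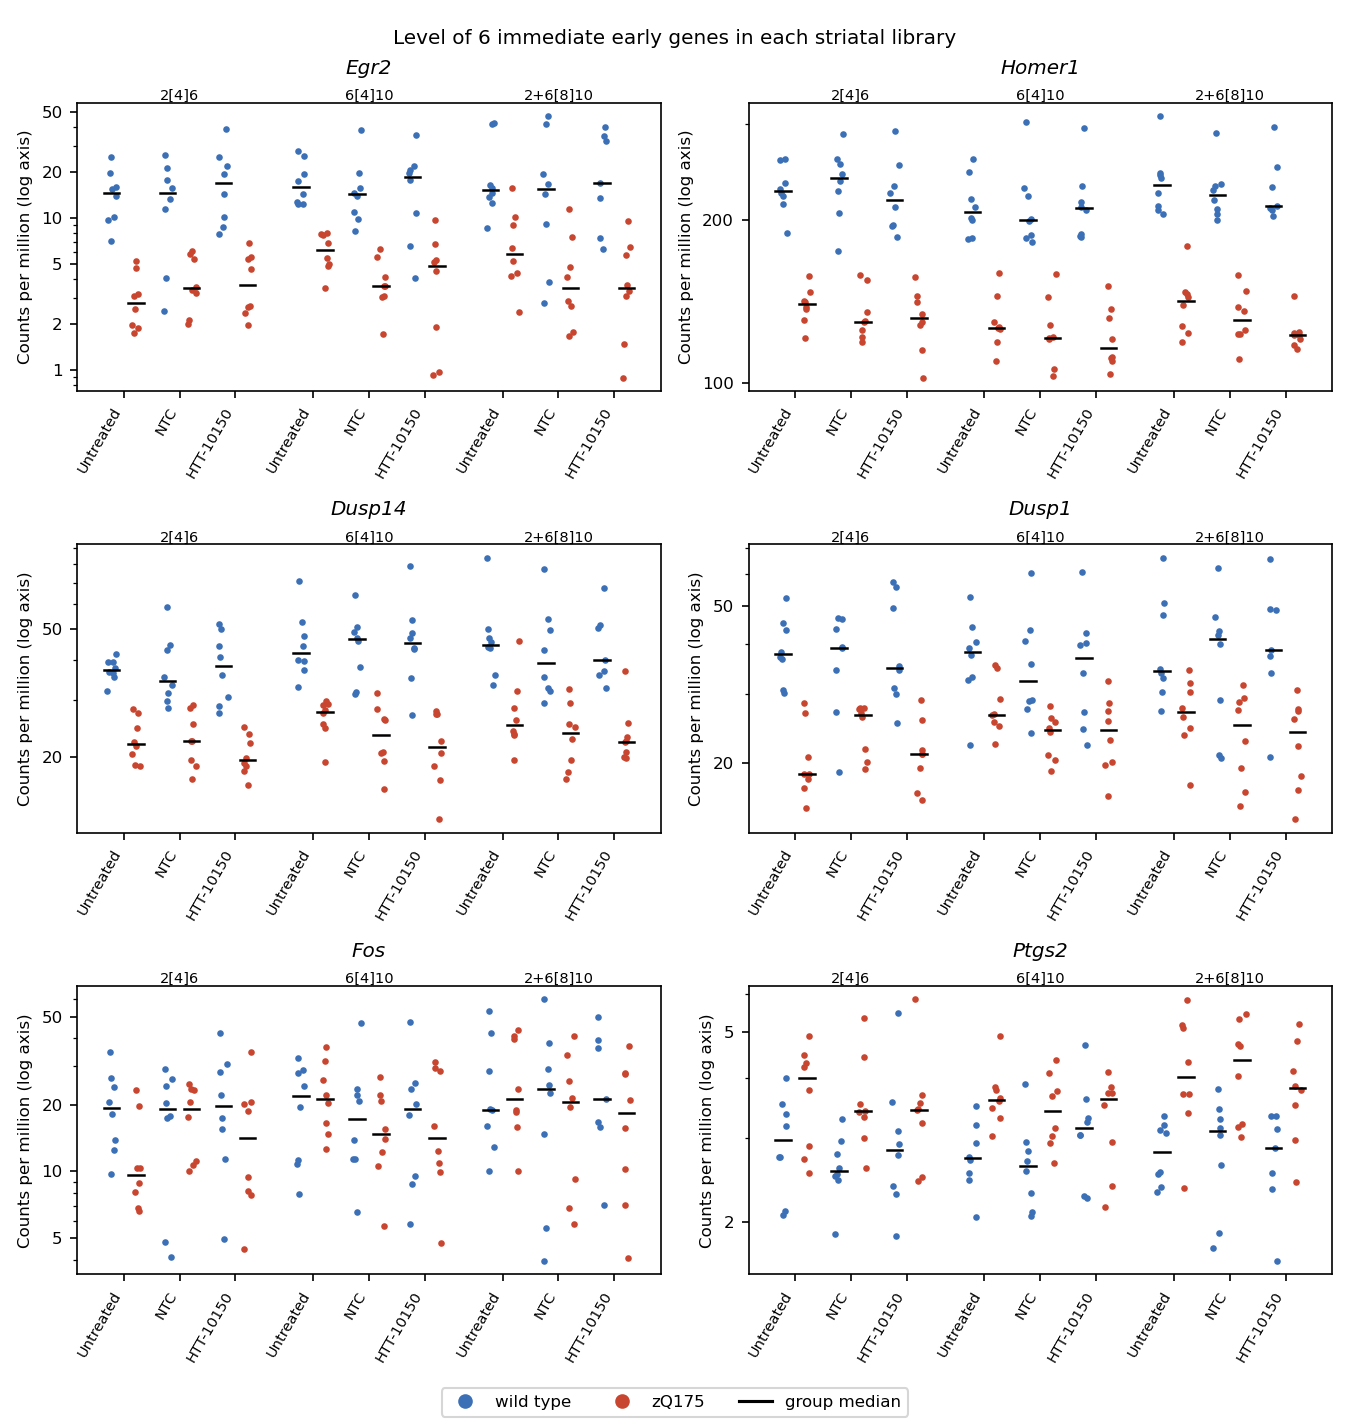
CPM on a log axis of Egr2, Homer1, Dusp14, Dusp1, Fos and Ptgs2 in each library (points) for the 18 groups of genotype, treatment and strategy, with a bar at each group's median. The Homer1 points of zQ175 sit below those of WT within each strategy and treatment, the Fos points overlap everywhere, and the Egr2 medians stay between 2.78 and 6.14 CPM in zQ175 against 14.3 to 18.8 CPM in WT.

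The untreated genotype effect was compared between strategies in 1 fit over all libraries, and both comparisons use the same 2[4]6 mice. Against 2[4]6, the effect in 6[4]10 was less negative for Ier5 by 0.39 ± 0.09 (adjusted p 0.0207) and more positive for Gadd45b by 0.55 ± 0.13 (adjusted p 0.0214), 2 of the 40 members where 0.835% of all genes were called. Gadd45b, a regulator of stress kinases and DNA demethylation, had 10.7, 11.9 and 15.5 CPM in untreated WT of 2[4]6 and 9.99, 10.9 and 12 CPM in zQ175, but 9.07, 9.81 and 14.3 CPM against 11.8, 13.1 and 19.4 CPM in 6[4]10. The genotype effect of Gadd45b was -0.21 ± 0.08 (adjusted p 0.0403) in the first, where the mixed model gave an adjusted p of 0.0533 and no call, and 0.35 ± 0.10 (adjusted p 0.00349) in the second. For 2+6[8]10 against 2[4]6, 0 members differed by edgeR (0.0675% of genes called), and 5 did at an unadjusted p under 0.05, each with a difference above 0, against 6.47% of all genes with such a difference above 0 and 4.6% below it. The larger number of members lower in untreated 2[4]6 than at 10 months is thus not matched by tested differences for most of them. Age and whatever else separated the mice of 2[4]6 from those of the other strategies cannot be told apart.

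Whether lowering Htt shifts these genes was asked by comparing HTT-10150 with NTC. Htt itself had medians of 152.9 CPM after NTC and 130.6 CPM after HTT-10150 in WT of 2[4]6, 158.5 and 135.7 CPM in 6[4]10, and 162.3 and 125.4 CPM in 2+6[8]10. In zQ175 the pairs were 126.2 and 126.7 CPM, 129.7 and 106.3 CPM, and 138.2 and 108.6 CPM. The Htt change was -0.49 ± 0.06 (adjusted p 5e-06) in WT and -0.36 ± 0.06 (adjusted p 0.000346) in zQ175 of 2+6[8]10, and was not called in the other 4 comparisons, in which it lay between -0.34 and -0.01. The table does not separate the alleles of Htt.

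By edgeR, 0 of the 40 members were called for HTT-10150 against NTC in any of the 6 comparisons. In zQ175, 0.0%, 0.0% and 3.16% of all genes were called in 2[4]6, 6[4]10 and 2+6[8]10, and in WT 0.00636%, 0.0% and 0.0129%. At an unadjusted p under 0.05 there were 2 members lower in zQ175 of 2[4]6 (Gadd45b and Ier5, at -0.24 and -0.14; 2.09% of all genes were lower at that threshold), 1 higher in WT of 2[4]6 (Atf3, at 0.62; 2.86% of all genes higher), and 0 in the other 4 (1.24% to 8.96% of all genes in either direction). The members' median log2 fold changes were -0.08, -0.04 and -0.04 in zQ175 and 0.10, 0.05 and 0.04 in WT. In 2+6[8]10, where Htt fell in zQ175, Egr2 had a log2 fold change of -0.18, Homer1 medians were 130.6 CPM after NTC and 122.5 CPM after HTT-10150, and the mixed model called 0 members among 4.4% of all genes. Whether the HTT-10150 effect depended on genotype was tested too, and 0 members were called in each strategy (0.0%, 0.0% and 0.529% of genes), with 1 (lower), 0 and 0 at an unadjusted p under 0.05, against 1.38%, 2.72% and 6.18% of all genes lower and 1.15%, 1.55% and 6.03% higher at that threshold. The absence of calls does not show that levels were equal.

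NTC against untreated mice shares the NTC libraries with the comparison above, and both were fitted together. By edgeR, 0 members were called in any of the 6 comparisons, in which 0.0% of genes were called except in WT of 2+6[8]10 (0.181%). Median log2 fold changes of the members were 0.09, -0.13 and -0.18 in zQ175 and -0.03, -0.05 and -0.07 in WT by edgeR. The mixed model gave 0.13, -0.23 and -0.24 in zQ175, with 38 and 37 of the 40 members below 0 in 6[4]10 and 2+6[8]10. In the mixed model, 17 members in zQ175 of 6[4]10 and 23 in zQ175 of 2+6[8]10 were lower after NTC at an unadjusted p under 0.05, against 5.69% and 2.64% of all genes, and 0 were higher. None of these held after adjustment. At the same unadjusted threshold edgeR gave 1 and 0 members lower and 0 higher in those comparisons, against 3.88% and 1.66% of all genes lower, and 0 to 2 members in either direction in the other 4, against 0.859% to 6.38% of all genes in 1 direction.

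**Figure D3:**
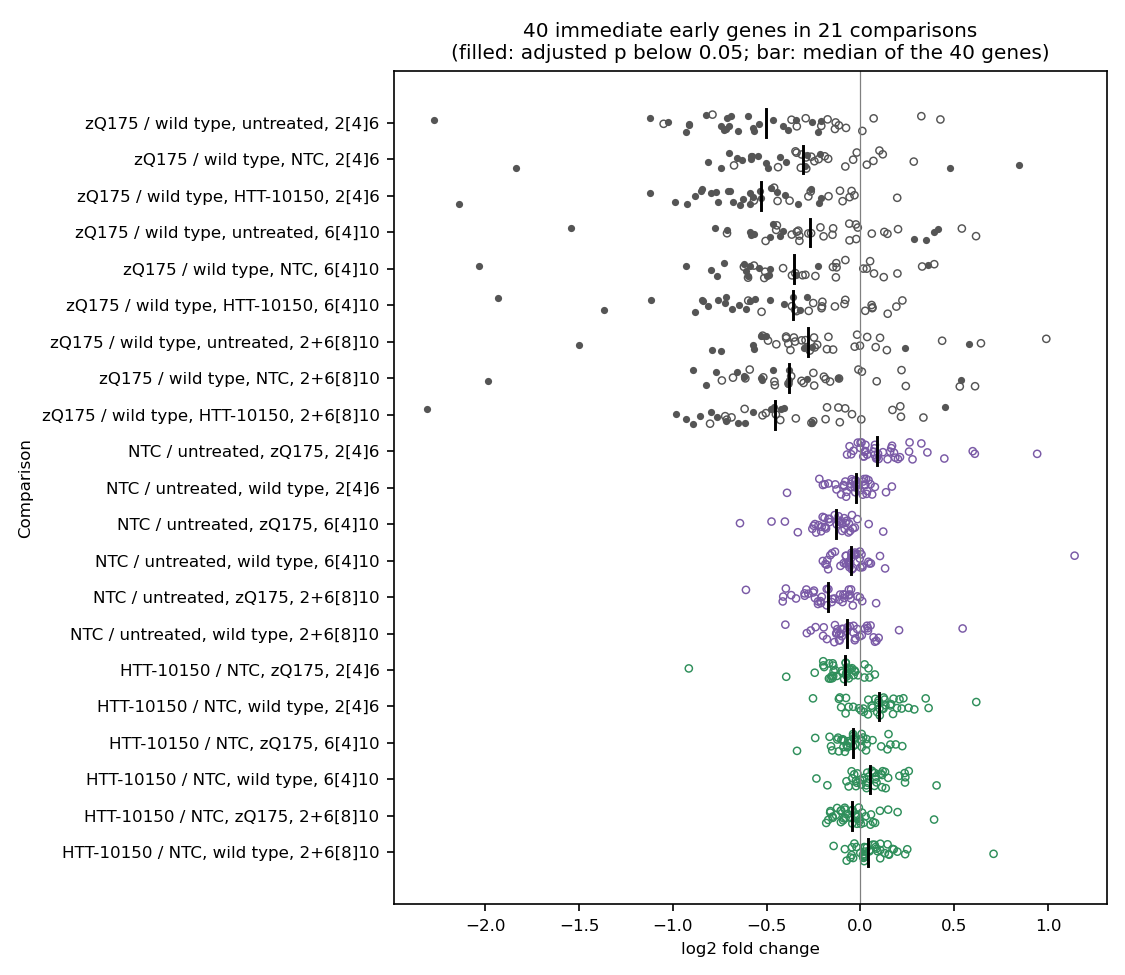
Log2 fold change (horizontal axis) of each of the 40 members in 21 comparisons (vertical axis), with a bar at the members' median and filled points for an adjusted p under 0.05 in edgeR. By edgeR, the medians of the 9 genotype comparisons lie between -0.53 and -0.27, those of the 12 treatment comparisons between -0.18 and 0.10, and filled points occur in the genotype comparisons alone.

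Sex differences were small. In 2[4]6, Homer1 and Klf10 were lower in males, with log2 fold changes of -0.13 ± 0.05 (adjusted p 0.0411) and -0.19 ± 0.06 (adjusted p 0.0216), where 16.6% of all genes differed between the sexes and 8.19% were lower in males. Klf10 was also lower in males of 6[4]10, at -0.23 ± 0.06 (adjusted p 0.0451), against 2.21% of genes called and 1.01% lower, and 0 members were called in 2+6[8]10 (2.1% of genes), where 3 had an unadjusted p under 0.05 beside 7.67% of all genes lower and 7.21% higher. The mixed model called 0 members in all 3 strategies.

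Libraries that share a number resembled each other in these genes. After removal of group means and sex, the correlation within a number had a median over the 40 members of 0.235, 0.549 and 0.74 in 2[4]6, 6[4]10 and 2+6[8]10, against 0.187, 0.123 and 0.0754 over all genes tested, and 23, 36 and 39 of the members lay above the median of all genes. Homer1 had 0.653, 0.796 and 0.779 and Fosl2 reached 0.92 in 2+6[8]10. Fos had -0.091, 0.34 and 0.653 in the same order of strategies, whereas Nr4a2 stayed low at 0.085, 0.094 and -0.235. These are descriptions over libraries of 1 experiment, and what the number stands for was not tested. Because numbers lie within a genotype, edgeR's p-values for the genotype comparisons treat as separate what these correlations show to be partly shared, and the mixed model's calls are the ones that allow for it.

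**Figure D4:**
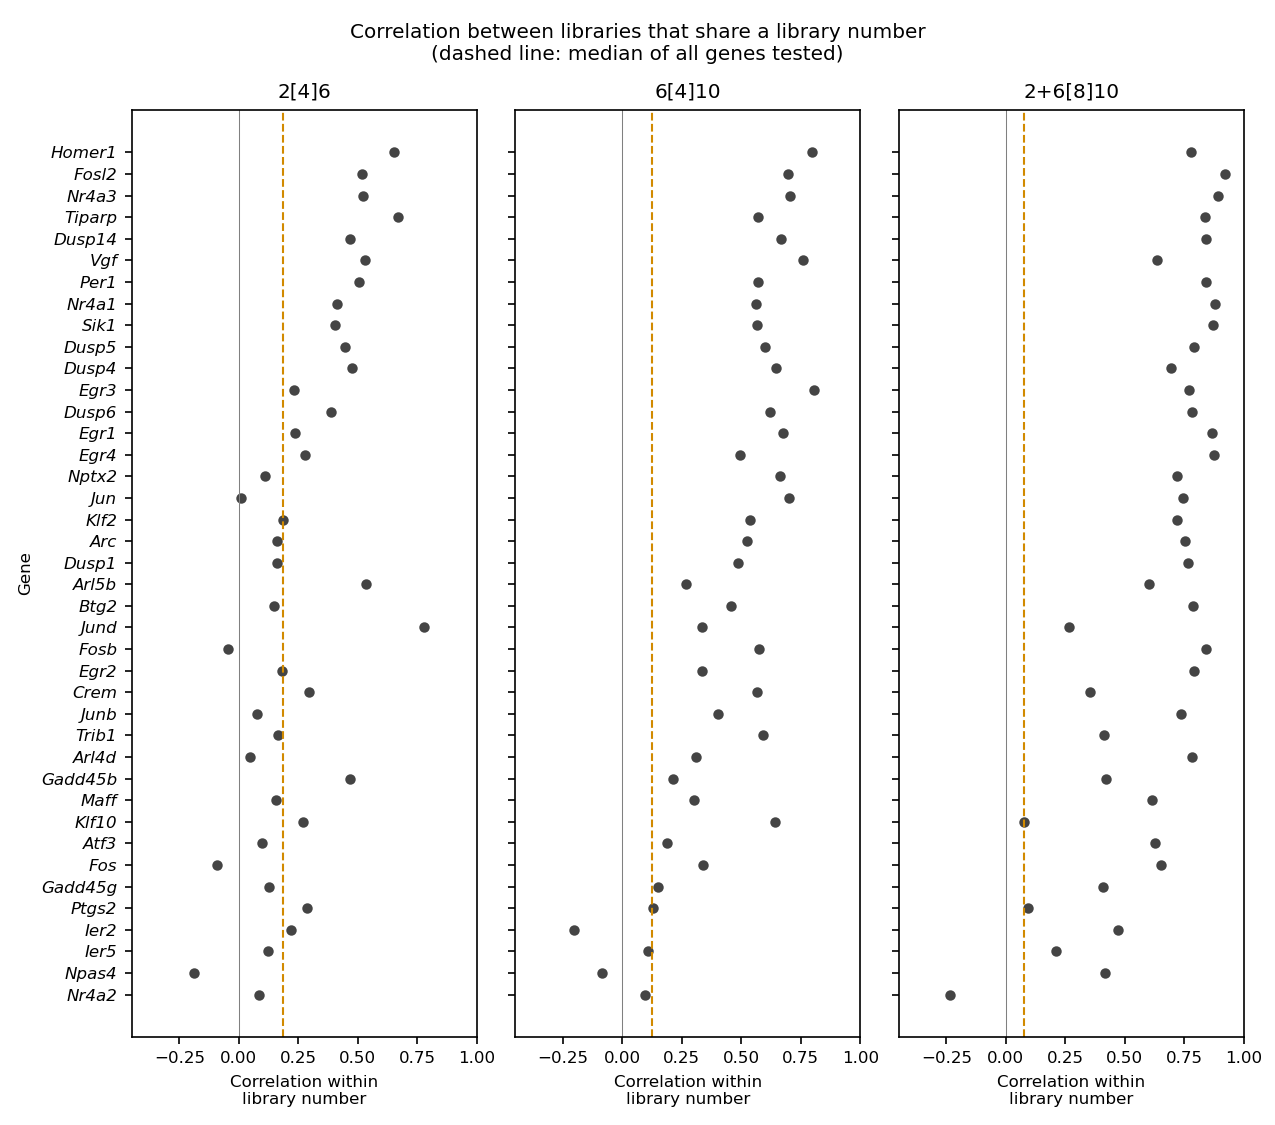
Correlation between libraries of the same library number after removal of group means and sex (horizontal axis) for each of the 40 members, in the 3 strategies, with a dashed line at the median of all genes tested. Most members lie to the right of the dashed line in 6[4]10 and 2+6[8]10, 36 and 39 of 40, against 23 in 2[4]6.

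The other genes of the pathway were followed in 3 further lists over the 9 genotype comparisons. Across these comparisons 15.9% to 21.4% of all genes were lower, which is the base for the counts that follow. Of 35 tested activity-regulated genes outside the 40, 7 to 15 were lower and 1 to 4 higher, the smallest count being close to that base, among them Rgs4, a brake on G protein signalling (-1.03 to -0.78), and Inhba, an activin subunit (-1.23 to -0.59). Of 36 upstream kinases, phosphatases and transcription regulators, 13 to 18 were lower and 2 to 6 higher, with Rps6ka4, the kinase MSK2 that phosphorylates CREB and histone H3, at -0.86 to -0.74, and Rasgrp2, an activator of the small GTPase RAP1, at -0.96 to -0.57. Ppp3ca, the catalytic subunit of calcineurin, and Camkk2, a calcium-activated kinase, ran from -0.70 to -0.53 and from -0.62 to -0.49. Of 13 clock genes, 6 to 11 were lower and 0 higher, with Npas2 at -0.77 to -0.63 and Dbp at -0.81 to -0.54. Rgs4, Inhba, Rps6ka4, Rasgrp2, Ppp3ca, Camkk2, Npas2 and Dbp were named for their small p in untreated 2[4]6, 1 of the 9 comparisons. They were lower in all 9, as were 7.53% of all genes. Because all genes were not picked by p, that share is not a like base for the named genes.

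Markers of cell types moved with genotype beside the members. Of 12 medium spiny neuron markers 11 were lower in zQ175 in each of the 9 comparisons, and the median of their sum was 11075 CPM in WT and 6331 CPM in zQ175. Endothelial markers were lower for 4 to 8 of 8 and astrocyte markers for 3 to 6 of 6, with sums of 197.5 to 284.1 CPM against 168.2 to 231.1 CPM and of 2724 to 3618 CPM against 2078.98 to 2860.43 CPM. Microglial markers were lower for 0 to 6 of 7, oligodendrocyte markers for 2 to 3 of 6, blood markers for 0 to 5 of 5 and thalamic markers for 0 of 4. Their part in the members' changes was not tested. Cortical markers were lower for at most 1 of 7 and higher for at most 1, and choroid plexus markers were lower for at most 1 of 6 and higher for at most 3. Without the 5, 14 and 13 libraries of the 3 strategies above 2 times the strategy's median of cortical markers, 8 members were lower and 1 higher in untreated 6[4]10, and 4 were lower and 1 higher in untreated 2+6[8]10. Without the 10, 6 and 8 libraries above 4 times the median of choroid plexus markers, untreated 2+6[8]10 gave 4 lower and 3 higher. These fits use fewer mice, down to 4 in a group. The share of all genes called in them is not given here, so these counts do not place the members against all genes.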

How the data were processed

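RNA was polyA-selected from the corpus striatum of 143 mice and, per the labels, each mouse gave 1 library. The p-values of edgeR rest on the spread between mice and treat mice that share a library number as separate. The mixed model allows for that number. The authors quantified genes with RSEM on GRCm38, per the submitters' processing notes, and deposited expected counts. No source used here gives the aligner or the version of RSEM. The other deposited table, though named for FPKM, has columns that each sum to 1000000 and was therefore read as TPM. It served only to compare levels between genes. Library depth was 12.55 M to 29.19 M counts, and 7 entries that name no mouse gene (5.91e-06% of counts) were left out. Symbols were given for 40254 gene identifiers.

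Expected counts were rounded to whole numbers (78.4% of nonzero values were already whole). Each strategy had its own model, with its 6 groups and sex, in edgeR 4.0.16 (R 4.3.3), using the quasi-likelihood test, TMM scaling, filterByExpr by group and robust dispersions. A call is a p under 0.05 after Benjamini-Hochberg adjustment across the genes tested. Standard errors were obtained from the fold change and the F statistic. CPM values are TMM-scaled. The alternatives were DESeq2 1.42.0, RLE scaling, limma 3.58.1 voom with the library number as a block, no filter, no sex term, only the groups compared, a replicate block and leaving out each replicate number. Chosen after seeing the data were a mixed model on log2 CPM (prior count 2) with library number as a random term, and fits without libraries high in cortical or choroid plexus markers. The scripts were tested on simulated data.

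The 40 members and all lists were chosen with earlier results of these data known. Any member could be named. Values by group are given in full for Fos, Junb, Egr1, Egr2, Arc, Npas4, Nr4a1, Homer1, Dusp1 and Per1 and for members called in all 3 untreated genotype comparisons, and from each further list up to 4 genes with the smallest p in untreated 2[4]6 were eligible. Ier5, Gadd45b and Ptgs2 were described further after their values were seen. The replicate numbers in the labels were used to pair samples in the replicate block alone.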

Additional observations from a re-analysis of the deposited data

Results flagged for a closer look

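In 11 measures (10 members and the mean log2 CPM of all 40) and 18 groups, 198 sets of mice were searched for a single mouse far from the rest by Dixon's test, and 12 were found, 6 at the low and 6 at the high end. Chance alone gives about 1 in 20. Values are log2 CPM.

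Homer1 accounts for 5 of them, each at the high end. They are 8.18 in WT given NTC and 8.28 in untreated WT, both male 4 of 2+6[8]10, 7.18 in zQ175 given HTT-10150 (female 4 of 2+6[8]10), and 8.2 and 8.24 in WT of 6[4]10, female 1 of the HTT-10150 and NTC groups. The 2 male 4 libraries share a library number. In zQ175 given NTC in 6[4]10, male 1 was lowest for Arc at 5.75, Nr4a1 at 4.77 and the mean of the 40 members at 3.79. The mean was highest at 5.01 in WT given NTC in 6[4]10, male 2. Npas4 was lowest at 3.77 in untreated zQ175 of 2+6[8]10, male 1, and at 3.24 in WT given NTC in 6[4]10, female 2. Per1 was lowest at 6.16 in WT given HTT-10150 in 6[4]10, female 3.

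The untreated genotype effect differed between 6[4]10 and 2[4]6 by 0.39 on the log2 scale for Ier5 and by 0.55 for Gadd45b, by edgeR's test of the difference itself.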

How the results depend on the processing

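The number of members called in the 9 genotype comparisons stayed within 1.5 times its reported value under DESeq2, RLE scaling, limma voom with library number as a block, the mixed model, no filter, no sex term, fitting only the groups compared, and the replicate block. The mixed model in untreated 2+6[8]10 stood exactly at that limit, with 8 members called, 5 lower and 3 higher. Its share of members lower was there below that of all genes (2799 of 15506). Of the single calls behind these counts, DESeq2 lost 0, the mixed model 16, no filter 28, leaving out cortical-high libraries 45, and leaving out a replicate number 42 to 51. The fits without cortical-high libraries, added after seeing the data, gave 9 members in untreated 6[4]10, 12 after HTT-10150 in 6[4]10, 5 in untreated 2+6[8]10 and 5 after HTT-10150 in 2+6[8]10. Without choroid-high libraries untreated 2+6[8]10 gave 7. Fewer mice enter these fits. The counts of members in this section are given without the share of all genes called in the same fit. They do not show where the members stand against all genes. Leaving out each replicate number in turn gave 19 to 23, 9 to 10 and 6 to 10 members in the untreated comparisons of 2[4]6, 6[4]10 and 2+6[8]10, 11 to 22, 10 to 15 and 11 to 16 after NTC, and 17 to 28, 9 to 22 and 12 to 15 after HTT-10150.

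Leaving out replicates gave 0 to 4 members for sex in 2[4]6 and 0 to 2 in 6[4]10. The 2 members for sex in 2[4]6 became 1 with no filter, 0 with voom and 0 in the mixed model. The 1 in 6[4]10 became 0 with no filter, voom, the mixed model, and without cortical-high or choroid-high libraries. DESeq2 gave 1 member for sex in 2+6[8]10 and 1 for the difference of 6[4]10 from 2[4]6. The cause of these changes was not tested. The HTT-10150 and NTC comparisons gave 0 members under every alternative run.

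Libraries of the same sex and replicate number in different groups correlated at a mean of 0.0877, 0.0445 and 0.0274 in the 3 strategies. Those of different replicate numbers correlated at a mean of -0.0278, -0.0143 and -0.0081. The lowest pairs of the same replicate number were at -0.42, -0.33 and -0.33, and the main model did not use replicate numbers as pairs. With the replicate block, the untreated comparisons gave 25, 16 and 17 members, those after NTC 19, 18 and 20, and those after HTT-10150 26, 21 and 20.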

Other observations

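In 2+6[8]10 the level of the members ran with the library number itself. This was looked for after the values had been seen, so the p-values below describe the trend and are not a test on separate data. Each number counted equally, whatever its count of libraries, and nearly every number lay within a single genotype. Deviations from the group mean were averaged per number, so that each of 21 numbers is 1 point, and 12 correlations (Pearson and Spearman, for Fos and for the mean log2 CPM of the 40 members, in 3 strategies) were computed with permutation tests. For Fos, Pearson's r was 0.718 (permutation p = 0.00036, adjusted 0.00208) and Spearman's rho 0.691 (permutation p = 0.00084, adjusted 0.00252), and r was 0.728 without the 2 numbers farthest from the median. For the mean of the members r was 0.766 (permutation p = 4e-05, adjusted 0.00048), rho was 0.71 (permutation p = 0.00052, adjusted 0.00208), and r without the 2 numbers was 0.764. In 2[4]6 (19 numbers) and 6[4]10 (23 numbers) r lay between -0.089 and 0.14, and no permutation p was below 0.336. In 6[4]10 a single number, taken as printed in the library names, lies far above all others, so Pearson's r there rests largely on it. Spearman's rho in 6[4]10 was -0.068 for Fos and -0.209 for the mean of the members. As an example of raw levels, not set against the group mean, Fos in the 3 libraries numbered 85 in 2+6[8]10 was at 49.8, 60 and 53.1 CPM. In the 3 numbered 78 Fos was at 4.08, 6.83 and 23.5 CPM. The former are WT males and the latter zQ175 males, so genotype also differs. Not every number followed the trend. Fos was at 9.22 to 15.9 CPM in the zQ175 males numbered 82 and at 15.7 to 21.5 CPM in the zQ175 females numbered 68. What the number stands for was not tested.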
